A study of Mus musculus with 16 samples.

Results

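A group of 10 genes that lie beside *Stat3* on mouse chromosome 11 were followed through chimeric embryos in which *Stat3* null cells developed next to wild-type (WT) cells. The genes were *Ptrf*, *Atp6v0a1*, *Coasy*, *Rab5c*, *Kat2a*, *Nkiras2*, *Dnajc7*, *Acly*, *Fkbp10* and *Jup* and were picked by name for their position, out of the 29453 genes in the count matrix. Other genes lie among them, and the choice was made with earlier results of these data known. All 10 passed the filter on low counts, which left 15567 genes for testing. Chimeras were made by injecting CD1 *Stat3* null embryonic stem cells (ESCs) that carried tdTomato into CD1 host blastocysts. Null cells are therefore ESC derivatives sorted as tdTomato-positive, and WT cells are host cells sorted as tdTomato-negative, without a tdTomato transcript. In the null line a run of *Stat3* exons was exchanged for a neomycin resistance gene. Per the study, mice with this allele were backcrossed to CD1, the strain of both groups. The DNA beside *Stat3* was not compared between the groups. The loss of STAT3, the altered chromosome around it, the label and the ESC origin cannot be told apart in these samples. Single cells of 3 embryonic days (E), E7.5 then E8.5 and last E9.5, were profiled by 3' RNA-seq. There were 2 null and 2 WT libraries at each of E7.5 and E8.5, and 4 of each at E9.5, and within each group the libraries are called A to D.

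STAT3 is a transcription factor that rests in the cytoplasm until cytokine receptors and their JAK kinases phosphorylate it, after which it pairs and binds DNA. Its relatives *Stat5a* and *Stat5b* sit in the same cluster on the chromosome, and all 3 genes are used in blood cells. The neighbours themselves have unrelated functions. *Ptrf* (also *Cavin1*) encodes the coat protein of caveolae, the small pits of the plasma membrane that are abundant in endothelium and mesothelium. *Jup* encodes plakoglobin, a linker in desmosomes and adherens junctions. *Rab5c* is a GTPase of early endosomes, and *Atp6v0a1* is a membrane subunit of the proton pump that acidifies endosomes and lysosomes. *Coasy* carries out the closing steps of coenzyme A synthesis, and *Acly* makes cytosolic acetyl-CoA from citrate. *Kat2a* is a histone acetyltransferase, *Dnajc7* a cochaperone of Hsp70 and Hsp90, *Fkbp10* a chaperone of collagen in the endoplasmic reticulum, and *Nkiras2* a small Ras-like protein that restrains NF-kB.

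Positions were taken from the mouse build GRCm38, and distances run from the nearest ends of the genes. The members span 0.718 Mb of chromosome 11. *Ptrf* is the nearest, at chr11:100956733-100970887 on the minus strand, 17.2 kb from *Stat3* at chr11:100885098-100939540, minus strand. Beyond *Ptrf* follow *Atp6v0a1* at 69.9 kb and *Coasy* at 143.0 kb. On the other side *Stat5a* runs in the opposite direction to *Stat3* and their ends overlap by 72 bp, and *Stat5b* is 34.4 kb away. Past *Stat5b* come *Rab5c* at 146.9 kb, *Kat2a* at 172.6 kb, *Nkiras2* at 257.5 kb, *Dnajc7* at 264.9 kb, *Acly* at 357.1 kb, *Fkbp10* at 460.3 kb and *Jup* at 487.3 kb. *Nkiras2* and *Dnajc7* overlap by 925 bp on opposite strands, and *Fkbp10* overlaps *Nt5c3b* by 2504 bp, so reads in the shared bases can be assigned only by strand.

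The stretch of 250 bases before each RefSeq start (build GRCm38.p6) was searched for TTCNNNGAA, the spacing of the palindrome that STAT dimers bind, which reads the same on both strands. Entries existed for 8 of the 10 members, with 10 starts in all. The motif was present in 1 of these, at an inner start of *Dnajc7*, at position -230 counted from that start, and in 7.02% of 32851 promoters of the same length. The same palindrome with a spacer longer by 1 base was in no member's window and in 5.85% of all promoters. The windows shown here run 5' to 3' on the strand of the gene, with the motif in capitals: that of *Stat3* itself, that of *Jup*, the farthest member and 1 of 2 members that passed a test, and that of *Dnajc7*. They lie at chr11:100939541-100939790, chr11:100397791-100398040 and chr11:100613353-100613602, all on the minus strand, with a GC content of 60.8%, 62.0% and 38.8%. The window of *Ptrf* falls inside an exon of the GENCODE model of the gene and is not shown. A match or its absence describes these letters only.
Stat3: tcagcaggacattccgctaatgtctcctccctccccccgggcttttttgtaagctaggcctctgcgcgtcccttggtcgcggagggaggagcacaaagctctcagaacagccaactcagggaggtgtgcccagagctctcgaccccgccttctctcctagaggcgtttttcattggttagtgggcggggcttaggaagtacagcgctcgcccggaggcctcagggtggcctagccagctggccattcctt
Jup: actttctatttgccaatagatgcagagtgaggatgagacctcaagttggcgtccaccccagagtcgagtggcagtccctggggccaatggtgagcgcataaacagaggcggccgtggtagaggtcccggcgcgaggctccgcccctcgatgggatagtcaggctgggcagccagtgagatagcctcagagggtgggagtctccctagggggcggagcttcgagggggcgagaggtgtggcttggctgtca
Dnajc7: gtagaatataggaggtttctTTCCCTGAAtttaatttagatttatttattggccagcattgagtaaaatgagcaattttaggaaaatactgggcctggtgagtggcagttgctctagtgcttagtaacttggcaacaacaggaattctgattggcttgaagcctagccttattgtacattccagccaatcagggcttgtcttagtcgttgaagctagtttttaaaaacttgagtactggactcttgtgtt

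The 16 libraries held 37841 analysed cells, between 360 and 4327 each, and between 20682659 and 138613245 transcripts counted by unique molecular identifier (UMI). Of the cells in the matrix 3395 were left out as doublets by the authors' call, and 596 host cells as carrying tdTomato. Libraries of 1 group differed by far more than sampling noise, with a chi-square per degree of freedom of 18.1 to 72.2 over 16 pairs. In 42 checks of the authors' cell type labels against defining markers, most markers lay above their median over types in all 42, and a marker was at 0 in 2. Cell barcodes shared between libraries numbered 488, over 978 cells. Embryos were pooled at E7.5 and E8.5. The study classed its E7.5 embryos as large or small before pooling, so libraries of that stage may differ in embryo size. At E9.5 only 2 embryos are described for the 4 libraries of each genotype, whose titles number 4 replicates. Libraries counted in n there would thus share an embryo, and p-values at E9.5 and over all stages may be too small. Which pool or embryo each library came from is not known, and p-values measure the spread between libraries, which may be technical. Levels are given in CPM, the usual scaling of a gene's UMIs to all UMIs of the library, which is not scaled by gene length and is compared only within a gene. Fold changes are null over WT on the log2 scale from edgeR's quasi-likelihood test, with Benjamini-Hochberg adjusted p over all genes tested. In such sums, fewer cells of a type and less RNA per cell cannot be told apart.

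The members that passed a test had less transcript in null cells: *Ptrf* over all stages and at E7.5, and *Jup* at E7.5. *Ptrf* was at 0.852 and 1.26 CPM in the 2 null libraries of E7.5, and at 4.42 and 3.45 CPM in the 2 WT libraries. The E7.5 groups did not overlap, with both null libraries below both WT libraries, as in 26.7% of all genes tested.
At E8.5 *Ptrf* was at 2.94 and 2.38 CPM in null and at 4.15 and 2.74 CPM in WT. At E9.5 the null libraries A to D held 1.67, 1.19, 1.995 and 2.80 CPM, and the WT libraries 3.53, 4.30, 1.77 and 4.74 CPM. At these stages the groups overlapped, at E9.5 through 1 WT library, C. Cells of the yolk sac (YS) mesothelium, where *Ptrf* was highest, made up 1.62%, 2.12%, 0.735% and 3.64% of the E9.5 WT libraries A to D and 0.624%, 0.456%, 1.0% and 1.75% of the null libraries A to D. They held 32.9% to 49.5% of the *Ptrf* UMIs of the WT libraries and 22.0% to 33.6% of those of the null libraries, and their part in the E9.5 difference was not tested.

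Averaged over the stages, *Ptrf* fell by 1.08 on the log2 scale in null cells (SE 0.239, adjusted p = 0.0215, edgeR). It was 1 of the 10 members called there, against 4.75% of all genes tested. At E7.5 the fall was 1.92 (SE 0.487, adjusted p = 0.0367). The changes at E8.5 (log2 fold change -0.38, SE 0.429, adjusted p = 1.0) and E9.5 (-0.93, SE 0.303, adjusted p = 0.239) did not pass, and the difference between the effects at E8.5 and E7.5, 1.54, did not either (adjusted p = 0.379). In an exact two-sided permutation test of the genotype labels within stages, the mean difference was -1.78 CPM (p = 0.00635, where the smallest possible over 2520 arrangements is 0.000794), and -1.04 CPM (p = 0.0587) with every cell type given the same weight. With limma-voom in place of edgeR the adjusted p was 0.0533 averaged and 0.128 at E7.5 (-1.97, SE 0.650). The averaged call was lost without any 1 of E7.5 WT A, E7.5 null A, E8.5 WT A or E8.5 null B (adjusted p of 0.0607 to 0.0874), and the E7.5 call without any 1 library of that stage (0.0674 to 0.251) and without E9.5 WT A (0.0511) or E9.5 null C (0.0523). Without E9.5 WT C the change at E9.5 passed (-1.15, adjusted p = 0.0411).

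*Jup* passed the test at E7.5 and at neither later stage. Its level was 7.88 and 8.41 CPM in null and 17.1 and 12.7 CPM in WT at E7.5. At E8.5 it was 9.72 and 10.3 CPM in null, above the 8.12 and 8.36 CPM of WT. At E9.5 the 4 null libraries, at 8.04 to 8.95 CPM, overlapped the 4 WT libraries at 7.24 to 8.51 CPM. The WT libraries of E7.5 thus held the 2 highest values of all 16 libraries.
At E7.5 *Jup* fell by 0.82 in null cells (SE 0.120, adjusted p = 0.0011, edgeR). With *Ptrf* this made 2 members called at E7.5, against 5.34% of all genes. With an absolute log2 fold change over 1 asked as well, *Ptrf* alone remained, against 2.62%. The effects at E8.5 (0.25, SE 0.116, adjusted p = 0.922) and E9.5 (0.06, SE 0.0814, adjusted p = 0.948) did not pass. The effect at E8.5 differed from that at E7.5 by 1.08 (SE 0.167, adjusted p = 0.0059), the single member whose genotype effect passed a test of change between stages, against 1.41% of all genes, and none passed between E8.5 and E9.5 (0.0321% of genes, and at an unadjusted p under 0.05 no member and 2.51% of genes). Fitted on the E7.5 libraries alone the value at E7.5 was -0.82 (SE 0.167, adjusted p = 0.0578).

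**Figure D1:**
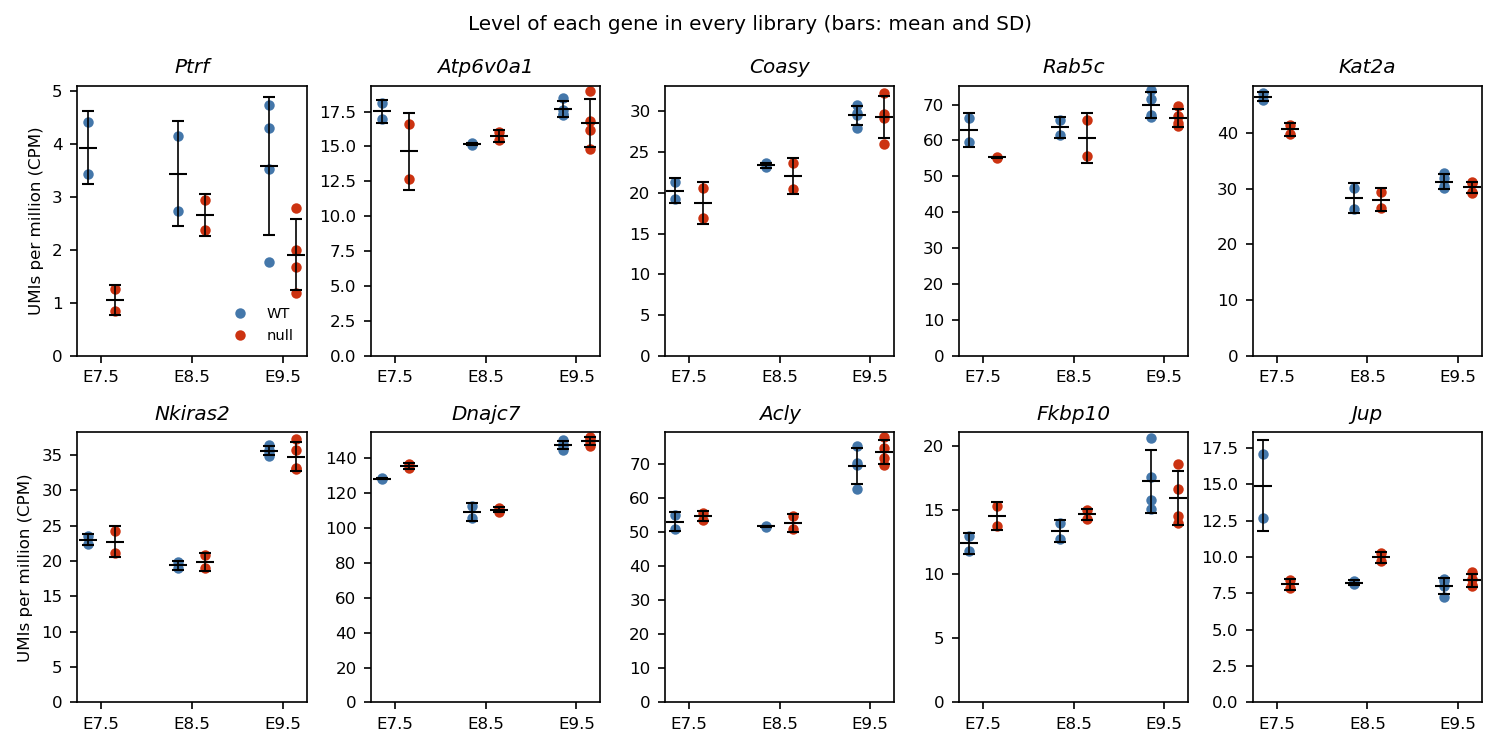
Level of each of the 10 genes, in CPM (y axis from 0), in every library by stage (x axis). Points are libraries, WT in blue and null in red, and black bars are the mean and SD. Ptrf lies lowest in E7.5 null library A, at 0.852 CPM, Jup highest in the E7.5 WT libraries, at 17.1 and 12.7 CPM, and for the other genes the 2 colours lie close together at each stage.

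The remaining 8 members stayed within narrow limits. Averaged over stages their log2 fold changes ran from -0.10 for *Rab5c* to 0.09 for *Fkbp10*, with 95% confidence bounds between -0.21 and 0.265 and adjusted p of at least 0.207. No member passed at E8.5 (0.212% of all genes called) or at E9.5 (1.35% called). At an unadjusted p under 0.05 there was 1 member at E8.5, *Jup*, against 5.26% of all genes, and 1 at E9.5, *Ptrf*, against 9.07%, and DESeq2 and limma-voom called none at either stage. Across the 3 stages the same 8 spanned -0.20 to 0.27 at E7.5, -0.10 to 0.11 at E8.5 and -0.12 to 0.08 at E9.5.

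Both members of the endosomal system had their null libraries below their WT libraries at E7.5, which was so for 26.7% of all genes, and neither passed the test. *Rab5c* was at 55.2 and 55.4 CPM in null and 66.3 and 59.6 CPM in WT at E7.5. The averaged change was -0.10 (SE 0.0423, adjusted p = 0.207, edgeR). The exact permutation test gave a mean difference of -4.73 CPM (p = 0.0476, not adjusted for the number of genes). This did not hold in the exact permutation test with equal weight for the cell types that entered it (-2.96 CPM, p = 0.137). *Atp6v0a1*, the next gene after *Ptrf*, was at 16.6 and 12.7 CPM in null and 16.9 and 18.1 CPM in WT at E7.5. At E8.5 *Atp6v0a1* was above WT in null, at 16.1 and 15.4 CPM against 15.1 and 15.2 CPM. At E9.5 its ranges overlapped, 14.8 to 19.0 CPM in null and 17.3 to 18.5 CPM in WT, and the averaged change was -0.09 (SE 0.0582, adjusted p = 0.482).

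The enzymes of the acetyl-CoA pathways were nearly level between genotypes. *Coasy* ranged over 16.9 to 20.6 CPM in null and 19.2 to 21.4 CPM in WT at E7.5, with an averaged change of -0.06 (SE 0.0549, adjusted p = 0.63). *Acly* was at 55.6 and 53.6 CPM in null and 55.0 and 51.0 CPM in WT at that stage, with an averaged change of 0.06 (SE 0.0425, adjusted p = 0.5). Both genes held more CPM at E9.5 than at E7.5 in every library of each genotype. E9.5 was not tested against E7.5, and the share of all genes that did the same was not counted. Changes with stage were common, with 44.8% of all genes called between E7.5 and E8.5 in WT cells and 40.4% between E8.5 and E9.5.

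*Kat2a*, *Dnajc7*, *Fkbp10* and *Nkiras2* were also close. *Kat2a* was at 39.8 and 41.4 CPM in null and 46.0 and 47.1 CPM in WT at E7.5, and its averaged change was -0.08 (SE 0.0407, adjusted p = 0.31). *Dnajc7*, the member with the most UMIs, was at 136.6 and 134.4 CPM in null and 128.3 and 127.9 CPM in WT at E7.5. The groups of *Dnajc7* did not overlap there, with a change of 0.13 (SE 0.0457, adjusted p = 0.141) that passed with DESeq2 (adjusted p = 0.0108).
*Fkbp10* was at 13.8 and 15.3 CPM in null and 13.0 and 11.8 CPM in WT at E7.5, with an averaged change of 0.09 (SE 0.0831, adjusted p = 0.646). *Nkiras2* was at 24.3 and 21.2 CPM in null and 22.5 and 23.6 CPM in WT, with an averaged change near 0 (0.00362, SE 0.0403, adjusted p = 0.99). Counting only whether libraries overlapped, 5 members at E7.5 had both null libraries below both WT libraries (26.7% of all genes did) and 2 had them above (14.2%). At E8.5 no member was below (12.1%) and 3 were above (19.2%). At E9.5 all 10 overlapped, where 3.57% of genes lay below and 3.34% above.

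The E7.5 libraries of null and WT cells also differed in composition, which in whole libraries of that stage cannot be told apart from genotype. Extra-embryonic cells here are those labelled as extra-embryonic ectoderm or as extra-embryonic, visceral or parietal endoderm. Mesothelium and blood of the yolk sac and the allantois are not among them. Such cells made up 21.4% and 15.1% of WT libraries A and B at E7.5, and 0.184% and 0% of null libraries A and B, where the 360 cells of null B allow a share of up to 0.833%. Injected ESCs rarely enter these tissues, which are mainly of host origin. These cells held 60.8% and 38.0% of the *Ptrf* UMIs of the WT libraries, and 51.0% and 44.1% of their *Jup* UMIs. Extra-embryonic ectoderm, the precursor tissue of the placenta, gave 72 and 71 *Ptrf* UMIs in WT A and WT B, at 14.2 and 12.4 CPM, while visceral endoderm had none. *Jup* was at 31.4 and 31.7 CPM in extra-embryonic ectoderm and at 73.7 and 56.0 CPM in visceral endoderm, an epithelium rich in junctions.

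With the extra-embryonic cells left out, an alternative chosen after seeing the data, the difference of *Jup* at E7.5 went from -0.82 to -0.18 (adjusted p = 0.788), and its change between E7.5 and E8.5 from 1.08 to 0.42 (adjusted p = 1.0). *Ptrf* was at -1.21 at E7.5 (adjusted p = 0.594) and at -0.84 averaged (adjusted p = 0.104), and no longer passed. Over all genes the number called at E7.5 went from 831 to 31 on the same change. With blood cells left out as well, *Ptrf* was at -0.60 at E7.5 (adjusted p = 0.878) and -0.59 averaged (adjusted p = 0.321), and *Jup* at -0.23 at E7.5 (adjusted p = 0.773). With blood alone left out, *Jup* at E7.5 was at -0.88 (adjusted p = 0.0009) and averaged *Ptrf* at -0.96 (adjusted p = 0.0433), while *Ptrf* at E7.5 no longer passed (-1.70, adjusted p = 0.0614).

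Within cell types, null and WT cells were compared stage by stage wherever at least 2 libraries of each genotype held more than 15 cells of the type, which gave 64 fits, 7 at E7.5, 20 at E8.5 and 37 at E9.5. The single call among the members was *Ptrf* in Blood progenitors of E7.5. Over all genes and types 0.214% of tests passed, and 0.488% in that cell type. In Blood progenitors, the early haematopoietic cells of the yolk sac, null libraries A and B held 1 and 2 *Ptrf* UMIs in 154 and 18 cells, and WT libraries A and B 16 and 31 UMIs in 40 and 67 cells. That is 0.130 and 1.63 CPM in null against 8.70 and 12.7 CPM in WT.
Each WT library thus held more *Ptrf* transcript than the null libraries together, from fewer cells than null A. The log2 fold change was -4.78 (SE 0.698, adjusted p = 0.00117, edgeR), and it also passed with DESeq2 and limma-voom. *Ptrf* passed the filter on low counts in these cells mainly through WT, which limits what the call can show. Summed over libraries, the WT to null ratio was 32.7, with a 95% counting interval of 10.5 to 164 that takes no account of spread between libraries. On leaving out 1 library, a check chosen after seeing the data that assumes the lone library to vary like the others, the adjusted p was 0.201 without null A (log2 fold change -2.65) and 0.148 without WT B (-4.43).

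In the same cells the STAT genes next to *Ptrf* moved the same way, as a description of adjoining genes in 1 set of libraries. *Stat5a* had 8 and 0 UMIs in null libraries A and B, and 35 and 37 in WT libraries A and B. Like *Ptrf* it passed the filter on low counts mainly through WT, which limits what its call can show. The log2 fold change was -4.17 for *Stat5a* (adjusted p = 8.08e-05), -2.93 for *Stat3* (adjusted p = 1.24e-05) and -1.58 for *Stat5b* (adjusted p = 0.00136), and the call of *Stat5b* was lost without null A (-1.18, adjusted p = 0.183). Without null A the fitted value of *Stat5a* went to -7.95 (SE 1.30, adjusted p = 0.00378), which is no bound, since null B held no *Stat5a* UMI. The stretch from *Stat5b* to *Ptrf* covers 190.2 kb. Of the other members, *Rab5c* (-0.23), *Atp6v0a1* (-0.31), *Acly* (-0.04), *Kat2a* (0.01), *Dnajc7* (0.06), *Fkbp10* (0.11), *Coasy* (0.20) and *Nkiras2* (0.27) had an adjusted p of 0.996 or more, and *Jup* held too few UMIs to be tested.
In Erythroid cells of E8.5, the primitive red cells, *Ptrf* was at 0.407 and 0 CPM in null (10 and 0 UMIs) and at 1.11 and 1.65 CPM in WT (21 and 27 UMIs). The change of -2.07 did not pass (adjusted p = 0.451), nor did those of *Stat5a* (-2.23, adjusted p = 0.0795), *Stat5b* (-1.38, adjusted p = 0.0757) and *Stat3* (-1.93, adjusted p = 0.194).

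**Figure D2:**
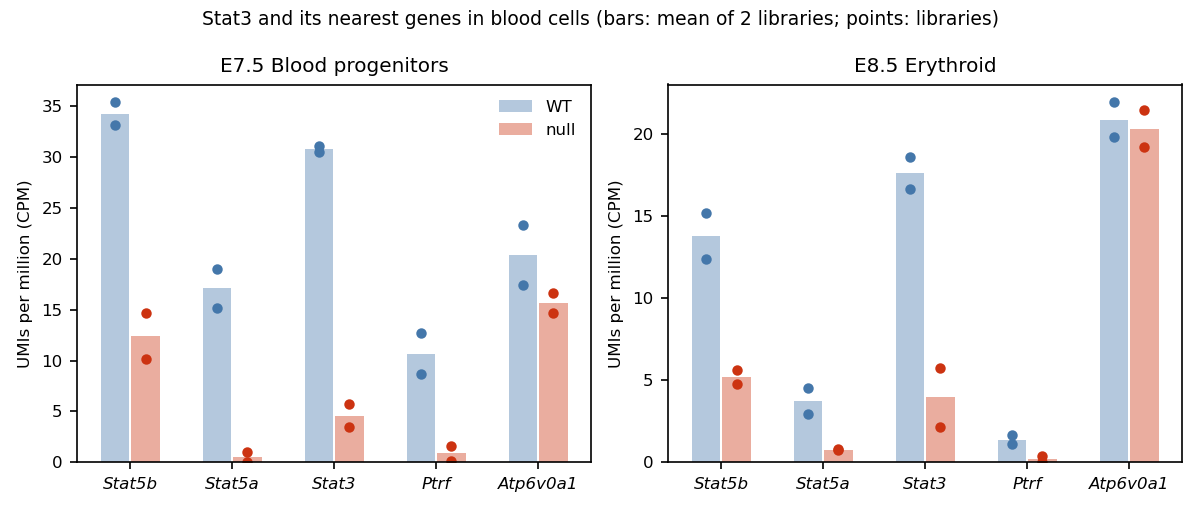
CPM (y axis from 0) of Stat5b, Stat5a, Stat3, Ptrf and Atp6v0a1, in their order on the chromosome, in Blood progenitors of E7.5 (left) and Erythroid cells of E8.5 (right). Bars are means of 2 libraries and points are the libraries, WT in blue and null in red. In Blood progenitors Ptrf reached 8.70 and 12.7 CPM in WT and 0.130 and 1.63 CPM in null, and in Erythroid cells the points of Atp6v0a1 lie side by side.

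*Ptrf* passed the filter on low counts in 9 of the 64 pairs of cell type and stage. In Blood progenitors and Erythroid cells each null library held fewer UMIs than each WT library, so there the filter was passed mainly through WT, and nothing is read from how many of the 9 lay below 0. Apart from the blood cells, the log2 fold changes were -1.47 in Mesenchyme of E7.5, -0.64 in Mesenchyme and -0.74 in YS mesothelium of E8.5, and -0.78 in Amniotic ectoderm, -0.49 in Venous endothelium, -0.54 in YS mesothelium and -0.11 in Mesenchyme of E9.5, none of which passed (adjusted p of 0.52 or more). In YS mesothelium of E9.5, the lining of the yolk sac, *Ptrf* was at 69.8, 64.5 and 60.4 CPM in null libraries A, C and D and at 117.5, 103.9 and 66.7 CPM in WT libraries A, B and D. WT D lay just below the highest null library.
In Venous endothelium of E9.5 the 3 null libraries, at 17.8 to 28.6 CPM, lay within the WT range of 16.6 to 41.6 CPM. The values of these last cell types rest on 13 to 246 UMIs a library. In Mesenchyme of E7.5, YS mesothelium of E8.5 and Amniotic ectoderm of E9.5, null library B held only 2, 1 and 2 *Ptrf* UMIs.

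For the other members the values within types scattered around 0. *Acly* was above 0 in 44 of 64 tests and *Kat2a* below 0 in 45 of 64, with medians of 0.05 and -0.07. *Rab5c* was below 0 in 40 of 64, *Coasy* in 35 of 64, *Nkiras2* in 34 of 63, *Dnajc7* in 33 of 64 and *Atp6v0a1* in 30 of 62, while *Fkbp10* and *Jup* passed the filter in 57 and 38 pairs. Over all genes and types 50.02% of tests lay below 0. No member other than *Ptrf* had more than 2 tests at an unadjusted p under 0.05, where 5.42% of all tests lay. *Jup*, which differed between whole libraries of E7.5, could be tested in 4 cell types of that stage, without a call, but not in the extra-embryonic ectoderm or visceral endoderm, which had too few null cells. With every cell type given the same weight in the permutation test, *Kat2a* differed by -2.27 CPM (p = 0.0357, and -2.41 CPM with p = 0.0754 without these weights) and *Jup* by 0.13 CPM (p = 0.724).

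**Figure D3:**
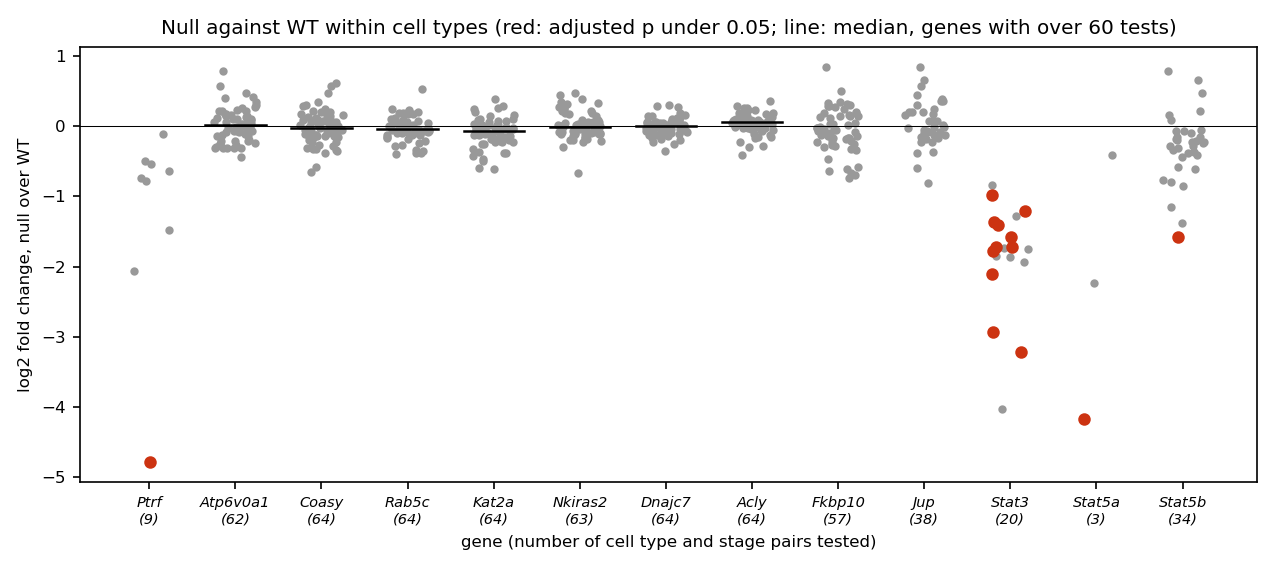
Log2 fold change of null over WT (y axis) within each cell type and stage for the 10 members and the 3 STAT genes (x axis, with the number of tests below each name). Grey points are single tests, red points those with an adjusted p under 0.05, and lines are medians, drawn for genes with over 60 tests. Ptrf has 1 call, at -4.78, and the medians drawn lie between -0.07 and 0.05.

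Of the 40 tested genes in the 20 positions on each side of *Stat3*, 3 were called in the averaged comparison, all lower: *Stat5a* (-1.57, adjusted p = 0.000266), *Stat5b* (-0.62, adjusted p = 0.000266) and *Ptrf*. *Stat3* itself was at -1.97. The 28 of these genes that are neither members nor STAT genes held no call in that comparison, with a smallest adjusted p of 0.0649. Taken by stage, *Wnk4* among them was called at E9.5 (-1.16, adjusted p = 0.00626), where 1.35% of all genes were. Just outside the called stretch, the averaged change was -0.19 for *Ghdc* (adjusted p = 0.281) and -0.09 for *Atp6v0a1*.
Within 1 Mb of *Stat3* 6 of 64 genes were called, or 9.38%, against 8.55% of 152 genes at 1 to 5 Mb, 5.56% of 360 at 5 to 20 Mb, 6.16% of 682 farther on the chromosome and 4.62% of 14068 genes elsewhere. Beyond the cluster the calls within 1 Mb included *Ifi35* (-1.39, adjusted p = 0.00935), an interferon-induced gene, and *Rdm1* (0.28, adjusted p = 0.0215), at 508.9 and 687.7 kb. In the averaged comparison with blood and extra-embryonic cells both left out, *Stat5a* (-0.75, adjusted p = 0.104) and *Stat5b* (-0.38, adjusted p = 0.054) also no longer passed, while *Stat3* did (-1.60). With blood alone left out, *Stat5a* (-0.90, adjusted p = 0.0121) and *Stat5b* (-0.40, adjusted p = 0.0143) still passed. So they did with extra-embryonic cells alone left out (-1.59, adjusted p = 0.000668, and -0.65, adjusted p = 0.000502).

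**Figure D4:**
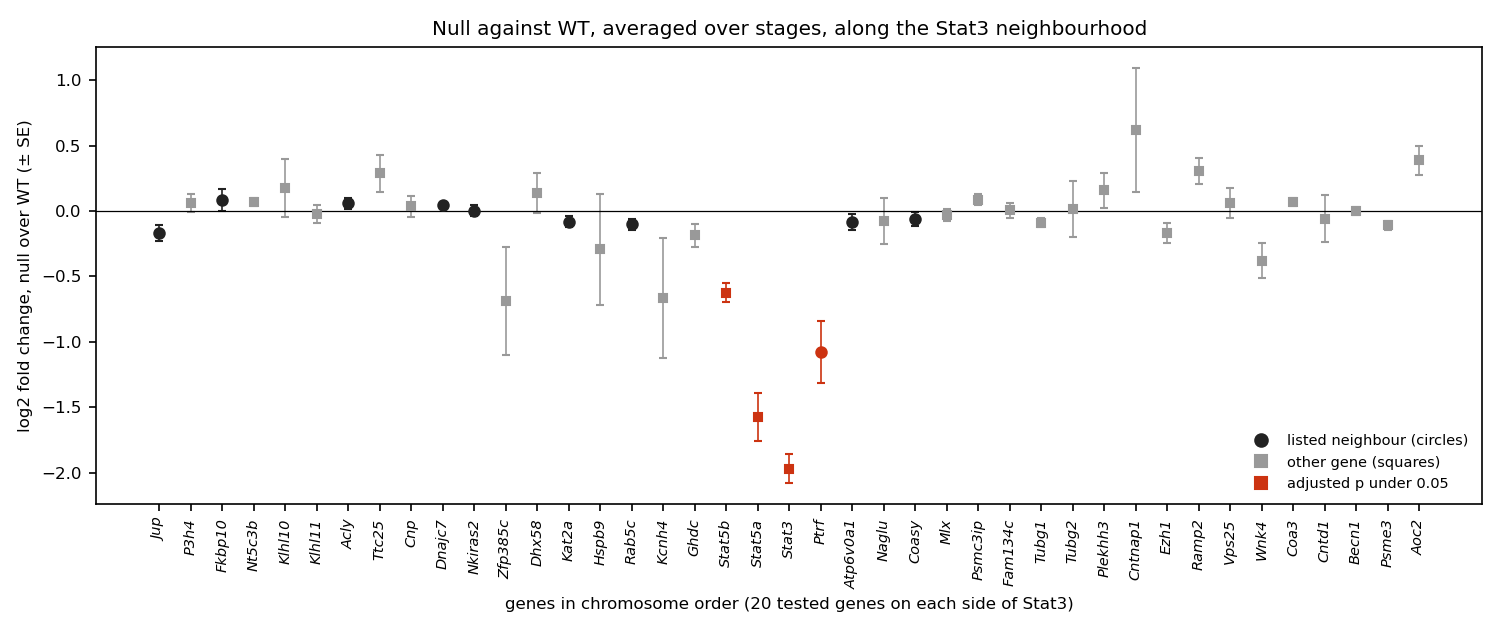
Log2 fold change of null over WT averaged over stages, with its SE (y axis), for the 20 tested genes on each side of Stat3 in chromosome order (x axis, not to distance). Circles are the 10 listed neighbours, squares other genes, and red marks an adjusted p under 0.05. The 4 red points, Stat5b, Stat5a, Stat3 and Ptrf, are adjacent, at -0.62, -1.57, -1.97 and -1.08, and the points of the other 9 members lie between -0.17 and 0.09.

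The partners of the members were followed through 10 lists of genes that share their pathways, 142 genes of which 135 were tested. Averaged over stages 2 passed, both lower in null cells, and none was higher, which is 1.48% of those tested against 4.75% of all genes. They were *Pank1*, a pantothenate kinase that opens coenzyme A synthesis (-0.36, SE 0.0641, adjusted p = 0.00594), and *Pkp4*, a plakophilin-like junction protein (-0.18, SE 0.0423, adjusted p = 0.0252). Of the 9 partners of *Ptrf* in caveolae, among them the caveolins *Cav1* and *Cav2*, none passed, with a median of -0.05 and a range of -0.34 to 0.58.
Of 17 subunits of the proton pump beside *Atp6v0a1* none passed (median -0.06), and of 12 genes of early endosomes beside *Rab5c* none (median -0.06). None passed among 23 subunits of the SAGA and ATAC complexes beside *Kat2a* (median 0.00), 14 Hsp90 and Hsp70 proteins beside *Dnajc7* (0.00), 13 genes of NF-kB beside *Nkiras2* (0.04), 10 of fatty acid synthesis beside *Acly* (-0.02) and 14 of collagen maturation beside *Fkbp10* (-0.02). At E7.5 6 genes of the lists, or 4.44% against 5.34% of all genes, were lower and none higher: *Atp6v1a*, *Pank1*, *Rab4a*, *Tnfaip3*, *Pkp4* and *Perp*. *Perp*, a desmosomal partner of *Jup* in epithelia, was at -2.53 (adjusted p = 0.0033), and at -0.15 (adjusted p = 0.989) without extra-embryonic cells. *Pank1* was at -0.50 (adjusted p = 0.0329) and then at -0.54 (adjusted p = 0.143), as large but no longer called, and none of the 6 passed then.

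Differences between stages were common over all genes, members included. Between E7.5 and E8.5 in WT cells *Kat2a* fell by 0.55 (adjusted p = 8.4e-05) and *Jup* by 0.68 (adjusted p = 0.000412), and *Coasy* rose by 0.37 (adjusted p = 0.0104), where 44.8% of all genes were called. Between E8.5 and E9.5 *Nkiras2* rose by 0.61 (adjusted p = 2.55e-05) and *Dnajc7* by 0.17 (adjusted p = 0.00339), and *Jup* fell by 0.30 (adjusted p = 0.027), with 40.4% called. In null cells *Jup* instead rose by 0.40 from E7.5 to E8.5 (adjusted p = 0.0157), as did *Ptrf* by 1.53 (adjusted p = 0.0223), *Coasy* by 0.34 and *Rab5c* by 0.24, while *Kat2a* fell by 0.44 and *Dnajc7* by 0.19, with 40.8% called.
From E8.5 to E9.5 in null cells *Nkiras2* rose by 0.56, *Acly* by 0.24 and *Dnajc7* by 0.20, and *Jup* fell by 0.49, with 40.3% called. The WT libraries of E7.5 include the extra-embryonic cells described above and those of later stages almost none, and their part in these stage differences was not tested.

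Across WT cell types the members fell into broadly used genes and genes with restricted use, over 87 pairs of cell type and stage with at least 2 WT libraries. *Ptrf* was the most restricted. It was highest in YS mesothelium of E9.5, at 96.0 ± 26.3 CPM (SD, n = 3), then in Megakaryocyte progenitors at 31.8 ± 1.97 CPM (n = 2) and Venous endothelium at 30.2 ± 12.6 CPM (n = 3), both of E9.5, and it was listed at 0 in 11 pairs. The ranges of these last pairs overlap, and all 3 libraries of YS mesothelium lie above them. *Fkbp10* was likewise highest in YS mesothelium, at 158 ± 25.6 CPM (n = 3) at E9.5 and 71.0 ± 7.49 CPM (n = 2) at E8.5, then in Mesenchyme at 61.6 ± 8.26 CPM (n = 4), tissues that lay down collagen. It was lowest in extra-embryonic ectoderm, at 0.548 ± 0.216 CPM (n = 2).
*Jup* was highest in Visceral endoderm of E7.5, at 64.8 ± 12.5 CPM (n = 2), and in Venous endothelium, at 50.2 ± 0.385 CPM (n = 2) at E8.5 and 49.0 ± 1.40 CPM (n = 3) at E9.5, and lowest at the Midbrain/Hindbrain boundary of E8.5, at 0.473 ± 0.127 CPM (n = 2).

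The other members were read in every pair, with a highest level 3.13 to 9.98 times the lowest. *Rab5c* was highest in Megakaryocyte progenitors (147 ± 26.5 CPM, n = 2) and in erythro-myeloid progenitors (EMP) of E9.5 (128 ± 16.2 CPM, n = 4), whose ranges overlap. *Atp6v0a1* was also highest in Megakaryocyte progenitors (50.2 ± 17.8 CPM, n = 2). *Coasy* (43.3 ± 4.97 CPM), *Nkiras2* (53.0 ± 3.48 CPM) and *Acly* (115.3 ± 5.32 CPM) were highest in Dorsal midbrain neurons of E9.5 (n = 4 each), and *Dnajc7* in Placodal ectoderm (176.4 ± 1.49 CPM, n = 2).
*Kat2a* was highest in extra-embryonic ectoderm of E7.5 (63.3 ± 4.84 CPM, n = 2), above all libraries of the next pair, Spinal cord progenitors of E9.5 (47.8 ± 8.62 CPM, n = 3). *Kat2a*, *Dnajc7*, *Acly* and *Nkiras2* were lowest in Erythroid cells, at 12.1 ± 2.22, 41.7 ± 2.53 and 23.3 ± 1.46 CPM for the first 3 at E9.5 (n = 4) and at 9.76 ± 1.94 CPM for *Nkiras2* at E8.5 (n = 2).

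**Figure D5:**
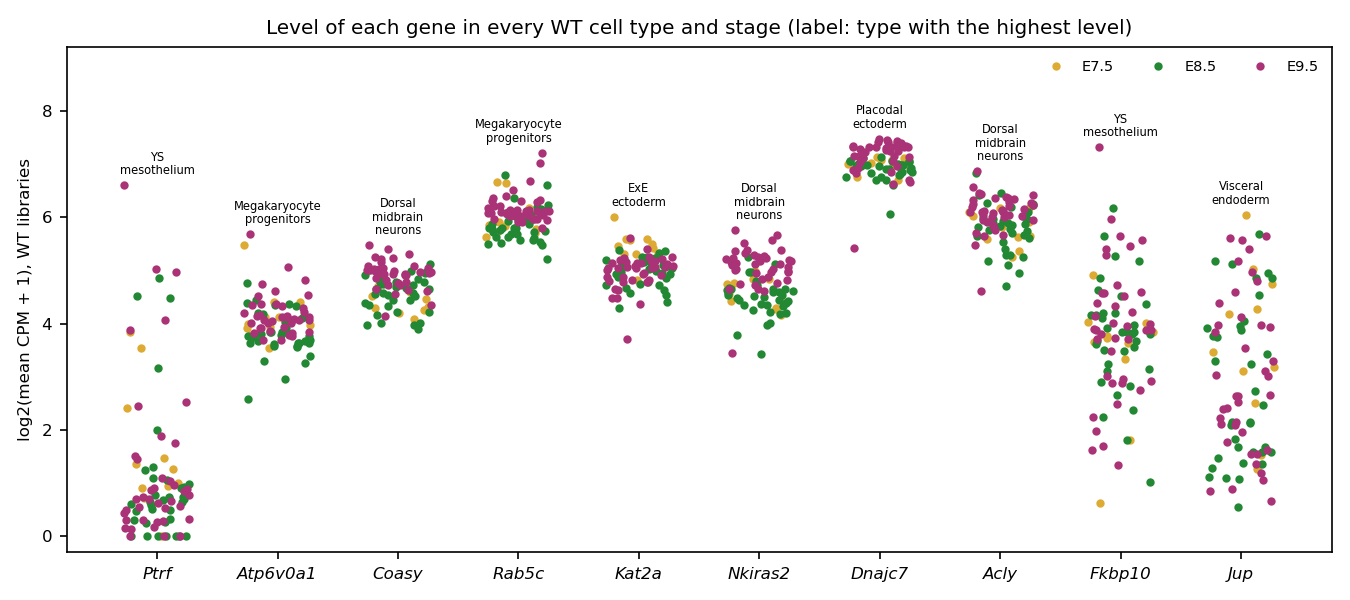
Level of each member in every WT cell type and stage, as log2 of the mean CPM plus 1 (y axis), with points coloured by stage and the type with the highest level named. Ptrf, Fkbp10 and Jup spread the widest, Ptrf down to 0 in 11 of 87 pairs, and Coasy stays within a narrow band.

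The genes whose levels followed each member most closely were taken from 9434 genes over 93 WT profiles of cell type and stage, as a description, since the profiles share libraries. The closest to *Fkbp10* was its neighbour *P3h4*, an endoplasmic reticulum protein of collagen modification whose gene starts in the opposite direction 861 bp away (r = 0.892, and 0.883 over the 86 profiles without blood). The closest to *Rab5c* was *Stat3* itself (r = 0.761, and 0.681 without blood). *Ptrf* followed *Tek*, the endothelial receptor TIE2 (r = 0.752), and its correlation with *Stat3* was 0.547. *Jup* followed *Actn4*, an actinin of the cell cortex (0.816), *Dnajc7* the splicing factor *Sfpq* (0.863), *Kat2a* the chaperone *Hspa4* (0.818), *Nkiras2* the kinase *Gsk3b* (0.812), *Acly* the planar polarity gene *Vangl2* (0.724), *Coasy* the nuclear RNA *Malat1* (0.699) and *Atp6v0a1* the F-box gene *Fbxo9* (0.652).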

How the data were processed

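Per the labels and the study's methods, the authors mapped 3' single-cell reads to mm10 with Cell Ranger, filtered cells, and deposited raw UMI counts per gene and cell, without normalization, with tables of doublet calls and of cell types transferred from a mouse atlas. The deposited cell annotation lists the percent of mitochondrial UMIs, as computed by the authors. Depth per cell lay at a median of 18205 to 57791.5 UMIs per library. Here counts of singlets were summed per library, and per library and cell type. They were tested with edgeR 4.0.16 (filterByExpr, TMM, robust quasi-likelihood, 1 mean per stage and genotype) in R 4.3.3. DESeq2 1.42.0 and limma 3.58.1 (voom) served as alternatives, with other weights, filters, cell sets and left-out libraries. The code was tested on simulated data. Calls needed an adjusted p under 0.05. Positions came from GENCODE on GRCm38 and promoters from RefSeq. All 10 members, the STAT genes and calls nearby or in pathway lists were named, with the 3 highest and lowest cell types and closest profiles considered. The members, lists and stage comparisons were chosen with earlier results of these data known. A gene called near *Stat3* is not reported here.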

Additional observations from a re-analysis of the deposited data

Results flagged for a closer look

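*Jup* differed between stages in its response to the genotype. The log2 fold change of null over WT at E8.5 exceeded that at E7.5 by 1.08 (SE 0.167, adjusted p = 0.0059, edgeR), and by 0.42 (adjusted p = 1.0) with extra-embryonic cells left out. Among the 4 WT libraries of E9.5, *Stat5a* stood apart in library C, at 0.784 CPM against 1.00 to 1.03 CPM in the other 3, farther than Dixon's limit for 4 values. Chance marks about 1 in 20 such groups, and 26 groups of the members and STAT genes were looked at.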

How the results depend on the processing

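No paired analysis was possible because the libraries in the matrix carry no name that ties them to the numbered replicates of the sample titles. No called result changed sign. Averaged *Jup*, which was not called at -0.17, was at 0.04 with extra-embryonic cells left out and 0.02 with blood left out too, and uncalled values near 0 of other members also crossed it. The count of members called over the averaged stages, 1 as reported, was 0 with limma-voom, 0 with extra-embryonic cells left out and 0 with blood left out too, and 0 to 2 on leaving out 1 library. *Ptrf* no longer passed there without E7.5 WT A (adjusted p = 0.0611), E7.5 null A (0.0874), E8.5 WT A (0.0649) or E8.5 null B (0.0607), while *Jup* passed without E7.5 WT B (0.0333) and *Rab5c* without E8.5 null A (0.0493). At E7.5 the count of 2 became 3 with DESeq2, with *Dnajc7* added, 1 with limma-voom, 1 with each stage fitted alone, 1 without blood cells, 1 with a fold threshold of 1 on the log2 scale, 0 without extra-embryonic cells and 0 without both, and 1 to 2 on leaving out a library. *Ptrf* at E7.5 did not pass without any 1 library of that stage (adjusted p of 0.0674 to 0.251), nor without E9.5 null C (0.0523) or WT A (0.0511). At E9.5 the count was 0 to 1, *Ptrf* passing without WT C (0.0411). The 1 change between stages became 0 without extra-embryonic cells, with or without blood. Within cell types the 1 call became 0 with over 50 cells asked per library and type or with null cells lacking a tdTomato UMI left out, and 0 to 1 on leaving out a library, since Blood progenitors of E7.5 then fall under the minimum of 2 libraries a genotype. Counting each single-gene result once for every alternative, the side of the threshold was kept 1921 times, lost 53 times and gained 10 times. The 1921 include the many values that were never called and stayed so. They also include, for Blood progenitors, 12 left-out libraries of other stages, which could not alter a fit at E7.5. This tally is therefore no measure of how firm the calls are. The values of *Ptrf* rest on 26 to 542 UMIs a library, and this depth limits them.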
